A study of Mus musculus with 9 samples.

Results

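Expression of the cardiac adrenergic receptors Adrb1, Adra1a and Adra1b, of the adenylyl cyclases Adcy5 and Adcy6 and of the cyclic AMP phosphodiesterases Pde3a and Pde4d was examined in the right ventricle of mice with pulmonary arterial hypertension. These 7 genes were chosen by name, with earlier results of these data known. For 5 of them (Adra1b, Adcy5, Adcy6, Pde3a and Pde4d) a probe set was annotated to that gene alone, out of 18820 genes measured in this way, and Adrb1 and Adra1a were not analysed here. The samples were right ventricles of 9 female C57BL/6 mice, 3 per group, each hybridized to 1 Affymetrix mouse gene array. Sham mice (mice 620, 624 and 625) received weekly saline and the standard AIN-93M diet. MCT mice (mice 640, 641 and 644) were fed the same diet and received weekly subcutaneous monocrotaline at 600 mg/kg for 8 weeks, starting at 10 weeks of age. Monocrotaline is a plant alkaloid that damages the vessels of the lung and thereby loads the right side of the heart. MCT + NI mice (mice 615, 617 and 619) received monocrotaline in the same way and a nutritional intervention (NI), an isocaloric diet enriched in protein, leucine, oligosaccharides and fish oil. The diets began 2 weeks before the first injection according to the labels, whereas the methods state a shorter lead-in. No sham mice on the NI diet were analysed here, so the effect of the diet without monocrotaline was not measured. According to the methods, mice for the arrays were selected to match in disease severity, so the groups do not cover the whole range of the disease.

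In cardiomyocytes, noradrenaline and adrenaline bind beta receptors, of which the beta-1 receptor encoded by Adrb1 is the main cardiac type. The stimulatory G protein then activates adenylyl cyclase, and the cyclic AMP formed activates protein kinase A, which phosphorylates calcium channels, the ryanodine receptor and contractile proteins and so raises the rate and force of the beat. Phosphodiesterases end the signal by breaking down cyclic AMP close to where it acts. Alpha-1 receptors instead couple to phospholipase C and calcium release. Long-lasting sympathetic drive in heart failure is known to blunt the beta receptor pathway.

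The deposited values were log2 intensities, and the group differences below are on that log2 scale, with two-sided p-values from limma adjusted over all 18820 genes by the Benjamini-Hochberg method. A gene was taken to have risen or fallen when this adjusted p was under 0.05. Over all probe sets the median log2 value was 4.77 to 4.79 per array. The 8 measured markers listed for ventricular cardiomyocytes averaged 11.78 to 11.85 in sham, 11.81 to 11.91 in MCT and 11.81 to 11.94 in MCT + NI mice. However, the arrays differed in atrial transcripts. The mean log2 level of 7 atrial cardiomyocyte markers (Myl7, Myl4, Sln, Nppa, Bmp10, Dkk3 and Stard10) was 10.13 to 11.01 in the sham mice. It was 5.56, 5.91 and 10.63 in MCT mice 640, 641 and 644 and 9.12, 6.33 and 5.67 in MCT + NI mice 615, 617 and 619. All sham mice, MCT mouse 644 and MCT + NI mouse 615 thus had high atrial levels, and the comparisons with sham are given below also with this level as a covariate, for the 5 genes and for the other genes whose values are given because they passed. In whole tissue, fewer cells of a type and less RNA per cell cannot be told apart.

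All 5 measured receptor and enzyme transcripts had lower group means in MCT than in sham mice, with estimated log2 differences between -0.24 and -0.17, and lower means in MCT + NI than in sham mice, with differences between -0.41 and -0.16. Pde4d was the only one of the 5 that passed the adjusted threshold, and it did so in both comparisons with sham. The MCT and MCT + NI groups overlapped in all 5 genes.

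**Figure D1:**
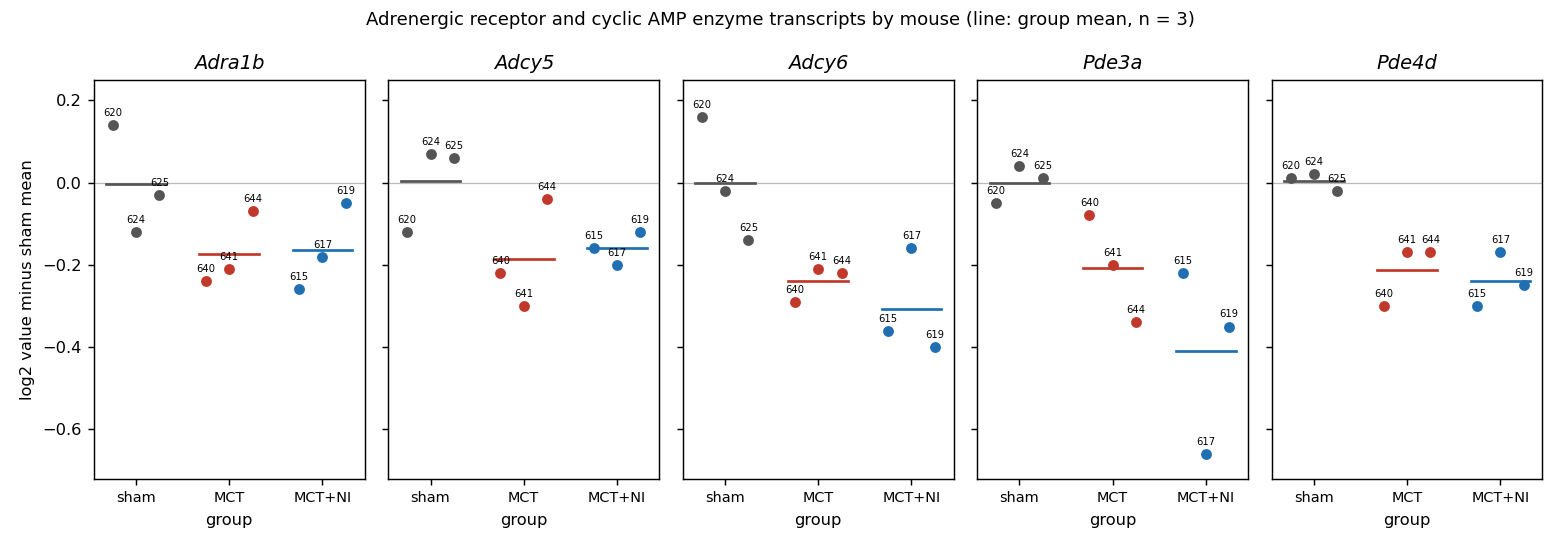
Log2 value of each gene minus its mean in the 3 sham mice (y axis), by group (x axis). Points are single mice with their numbers and horizontal lines are group means (n = 3 per group). For Adcy6, Pde3a and Pde4d, all 6 MCT and MCT + NI mice lay below the lowest sham mouse, whereas for Adra1b and Adcy5 the groups overlapped.

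Adra1b encodes the alpha-1B adrenergic receptor, which couples to the Gq family of G proteins. Its log2 values were 6.48, 6.22 and 6.31 in sham mice 620, 624 and 625, 6.10, 6.13 and 6.26 in MCT mice 640, 641 and 644, and 6.07, 6.15 and 6.29 in MCT + NI mice 615, 617 and 619. MCT mouse 644 and MCT + NI mouse 619 lay within the sham range, and the other 4 treated mice lay below it. The log2 difference was -0.17 ± 0.088 (SE) for MCT against sham mice (limma adjusted p = 0.329) and -0.16 ± 0.088 for MCT + NI against sham mice (limma adjusted p = 0.358). With 95% confidence intervals from -0.37 to 0.03 and from -0.36 to 0.03, neither difference could be told from 0. Without sham mouse 620, the highest of all, the differences were -0.10 and -0.09. With the atrial level as a covariate they were -0.17 and -0.16 (limma adjusted p = 0.609 and 0.662).

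Of the other adrenergic receptors only the alpha-2C receptor gene Adra2c was measured, 1 of 6 listed. Its log2 values lay between 3.49 and 3.61 in sham, 3.39 and 3.58 in MCT and 3.52 and 3.58 in MCT + NI mice, all below the median gene level of 5.42. The groups overlapped, with log2 differences of -0.09 (limma adjusted p = 0.562) and -0.01 (limma adjusted p = 0.948) from sham.

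Adcy5 and Adcy6 encode the 2 closely related, calcium-inhibited adenylyl cyclases that dominate in the adult heart. The log2 values of Adcy5 were 7.49, 7.68 and 7.67 in sham mice 620, 624 and 625, 7.39, 7.31 and 7.57 in MCT mice 640, 641 and 644, and 7.45, 7.41 and 7.49 in MCT + NI mice 615, 617 and 619. Sham mouse 620 was the lowest of its group and MCT mouse 644 the highest of its group, so that the groups overlapped. The log2 difference of Adcy5 from sham was -0.19 ± 0.077 (SE) in MCT mice (limma adjusted p = 0.22) and -0.16 ± 0.077 in MCT + NI mice (limma adjusted p = 0.298). As in the atrial markers, sham mouse 620 was the lowest of the sham mice in Adcy5 and mouse 644 the highest of the MCT mice. In the MCT + NI mice Adcy5 was highest in mouse 619 (7.49), which had the lowest atrial level of that group (5.67). Their Adcy5 values spanned only 7.41 to 7.49 (SD 0.038), too little for this order to be read. With the atrial level as a covariate the differences shrank to -0.08 and -0.04, and the part of atrial tissue in them was not tested further.

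For Adcy6, the log2 values were 9.31, 9.13 and 9.01 in sham mice 620, 624 and 625, 8.86, 8.94 and 8.93 in MCT mice 640, 641 and 644, and 8.79, 8.99 and 8.75 in MCT + NI mice 615, 617 and 619. Every treated mouse lay below every sham mouse, although MCT + NI mouse 617 (8.99) was close to sham mouse 625 (9.01). The log2 difference was -0.24 ± 0.083 (SE) in MCT mice, a 1.18-fold lower mean (unadjusted p = 0.0169, limma adjusted p = 0.14), and -0.31 ± 0.083 in MCT + NI mice, a 1.24-fold lower mean (unadjusted p = 0.00504, limma adjusted p = 0.0682). Adcy6 therefore missed the adjusted threshold in both comparisons. For MCT + NI against sham it passed without sham mouse 625 (-0.38, limma adjusted p = 0.0464) or without MCT + NI mouse 617 (-0.38, limma adjusted p = 0.0313). It did not pass in the other fits without 1 mouse, with limma adjusted p up to 0.221 (without MCT + NI mouse 619). With the atrial level as a covariate the Adcy6 differences were -0.26 and -0.32, about as large as without it. Their limma adjusted p was larger, at 0.343 and 0.292, and neither passed.

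Pde3a encodes the phosphodiesterase that is inhibited by cyclic GMP and by the inotrope milrinone. Its log2 values were 9.22, 9.31 and 9.28 in sham mice 620, 624 and 625, 9.19, 9.07 and 8.93 in MCT mice 640, 641 and 644, and 9.05, 8.61 and 8.92 in MCT + NI mice 615, 617 and 619. The sham mice lay close together (SD 0.043), while the spread was larger in the MCT (SD 0.13) and MCT + NI mice (SD 0.22), where mouse 617 was the lowest of all 9. No treated mouse reached the sham range. The log2 difference was -0.21 ± 0.11 (SE) in MCT mice (unadjusted p = 0.0794, limma adjusted p = 0.322) and -0.41 ± 0.11 in MCT + NI mice, a 1.33-fold lower mean (unadjusted p = 0.00382, limma adjusted p = 0.0566). When MCT + NI mouse 615 was left out, the latter difference was -0.50 and passed the threshold (limma adjusted p = 0.0391). It did not pass in the other fits without 1 mouse, with limma adjusted p up to 0.162 (without sham mouse 624). The Pde3a differences with the atrial level as a covariate were -0.23 and -0.43, and neither passed (limma adjusted p = 0.538 and 0.257).

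Pde4d encodes a cyclic AMP-specific phosphodiesterase that is found with beta receptors and the ryanodine receptor. Its log2 values were 8.36, 8.37 and 8.33 in sham mice 620, 624 and 625, 8.05, 8.19 and 8.19 in MCT mice 640, 641 and 644, and 8.05, 8.18 and 8.11 in MCT + NI mice 615, 617 and 619. The 3 sham mice were nearly equal (SD 0.02) and all 6 treated mice were lower, the highest of them at 8.19. MCT mice 641 and 644 carried an identical Pde4d reading (8.1867). Repeats of this kind were common on these arrays (12042 of 18820 genes). Whether they narrow the estimated spread, and with it the adjusted p of Pde4d, was not tested. Pde4d fell by 0.21 ± 0.052 (SE) in MCT mice, a 1.16-fold lower mean (limma adjusted p = 0.0468), and by 0.24 ± 0.052 in MCT + NI mice, a 1.18-fold lower mean (limma adjusted p = 0.0279). The adjusted p of MCT against sham lay just under the threshold, and of the 9 fits that each left out 1 mouse only that without MCT + NI mouse 617 kept it there (limma adjusted p = 0.0427). In MCT + NI against sham it was lost without sham mouse 620, 624 or 625 or MCT + NI mouse 615 or 619, with limma adjusted p up to 0.1. The size of the difference stayed between -0.23 and -0.17 for MCT and between -0.27 and -0.21 for MCT + NI mice in those fits, and was -0.20 and -0.23 with the atrial level as a covariate (limma adjusted p = 0.225 and 0.23). A second, dimmer probe set of Pde4d read 5.19, 5.49 and 5.04 in the sham, 5.07, 5.08 and 4.88 in the MCT and 4.89, 5.09 and 5.07 in the MCT + NI mice. These groups overlapped, and the estimate for MCT against sham was -0.23 (limma adjusted p = 0.479 over all probe sets).

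Read over the 5 genes, 1 passed the adjusted threshold as lower in MCT mice, where 1.61% of all genes did, and 1 in MCT + NI mice, where 1.75% did. At an unadjusted p under 0.05, which is the less strict of the thresholds in the study's methods, 3 of 5 were lower in MCT mice (Adcy5, Adcy6 and Pde4d) against 9.14% of all genes, and 3 of 5 in MCT + NI mice (Adcy6, Pde3a and Pde4d) against 9.37%. Groups that did not overlap, with the treated mice lower, were seen for the same 3 genes (Adcy6, Pde3a and Pde4d) in both comparisons, against 10.2% of all genes for MCT and 10.3% for MCT + NI mice. An estimate below 0 was found for 5 of 5 genes in each comparison, against 55% and 55.6% of all genes. The median difference of the 5 genes was -0.209 in MCT and -0.239 in MCT + NI mice, whereas the median of all genes was -0.0159 and -0.0174. Both comparisons share the 3 sham mice, so they are not independent of each other. The genes were chosen with earlier results of these data known. Their counts next to the shares of all genes are therefore a description without a test. An exact permutation test of 3 against 3 mice cannot give a p below 0.1, and that value was reached by Adcy6, Pde3a and Pde4d.

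By mouse, 640 and 641 (MCT) and 615 and 617 (MCT + NI) had all 5 transcripts below the lowest sham mouse, whereas 644 and 619 had 3 of 5 below it. In each of the 6 treated mice all 5 transcripts were below the sham mean, with a median of -0.26 to -0.17 over the 5 genes. The estimates stayed below 0 when any 1 mouse was left out, but single mice changed their size. For MCT against sham, Adra1b was at -0.10 without sham mouse 620 and -0.23 without 624, next to -0.17 with all mice. For MCT + NI against sham, Pde3a was at -0.29 without mouse 617 and -0.50 without 615, next to -0.41. The gene farthest below sham varied from mouse to mouse.

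**Figure D2:**
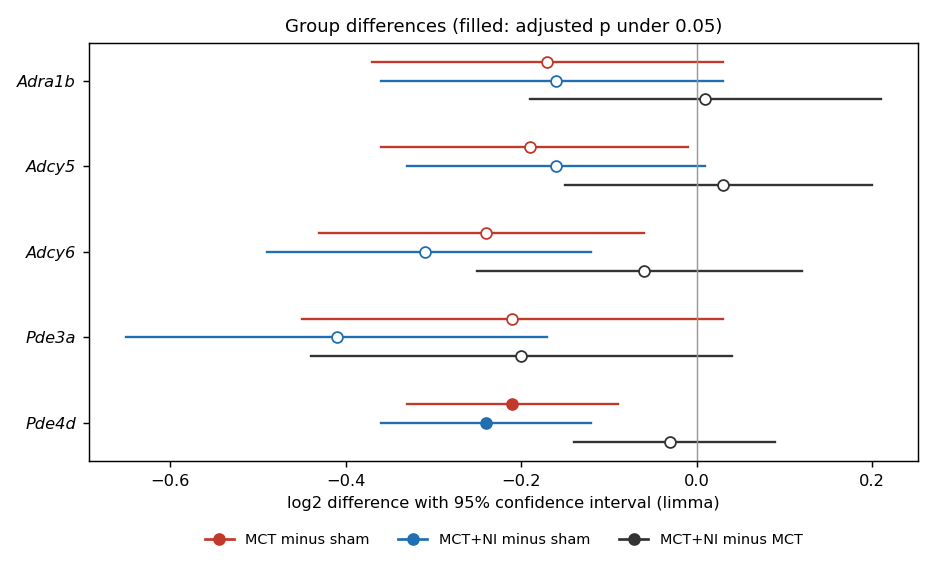
Log2 differences between groups with 95% confidence intervals from limma (x axis) for each gene (y axis), with MCT minus sham in red, MCT + NI minus sham in blue and MCT + NI minus MCT in black. Filled points had an adjusted p under 0.05, which was the case for Pde4d in both comparisons with sham (-0.21 and -0.24), and all intervals of MCT + NI minus MCT included 0.

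To test whether NI altered these transcripts in mice given monocrotaline, MCT + NI mice were compared with MCT mice. None of the 5 genes passed the threshold in limma (adjusted p = 1 for each, and 0 of 5 at an unadjusted p under 0.05), where 0% of all genes passed the adjusted and 2.9% the unadjusted threshold. The log2 difference was 0.01 for Adra1b (95% confidence interval -0.19 to 0.21), 0.03 for Adcy5 (-0.15 to 0.20), -0.06 for Adcy6 (-0.25 to 0.12) and -0.03 for Pde4d (-0.14 to 0.09). The intervals of these 4 genes thus lay within -0.25 to 0.21, and differences inside each of them could not be told from 0. Pde3a had the widest interval, from -0.44 to 0.04 around an estimate of -0.20. With the 2 treated mice of high atrial level (644 and 615) left out, the estimate for Pde3a was -0.36 (unadjusted p = 0.0103, limma adjusted p = 1), and Pde3a was also under the unadjusted threshold when either of these mice alone was left out (-0.27 without 644, -0.29 without 615). Leaving out MCT + NI mouse 617, the lowest, instead brought the estimate to -0.08 (unadjusted p = 0.346), and leaving out MCT mouse 640 to -0.14.

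The remaining pathway was described with 137 further genes in 13 lists, of which 118 were measured. These lists were also chosen with earlier results known, so the shares of all genes are given as a description. In MCT mice 9 of the 118 rose and 5 fell, where 4.65% of all genes rose and 1.61% fell. In MCT + NI mice 8 rose and 3 fell, where 4.52% of all genes rose and 1.75% fell. The median difference over the 118 genes was -0.00527 in MCT and -0.00925 in MCT + NI mice, next to medians of -0.0159 and -0.0174 over all genes. When MCT + NI mice were set against MCT mice, 0 of the 118 passed the adjusted threshold in limma, and 5 of 118 did at an unadjusted p under 0.05.

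**Figure D3:**
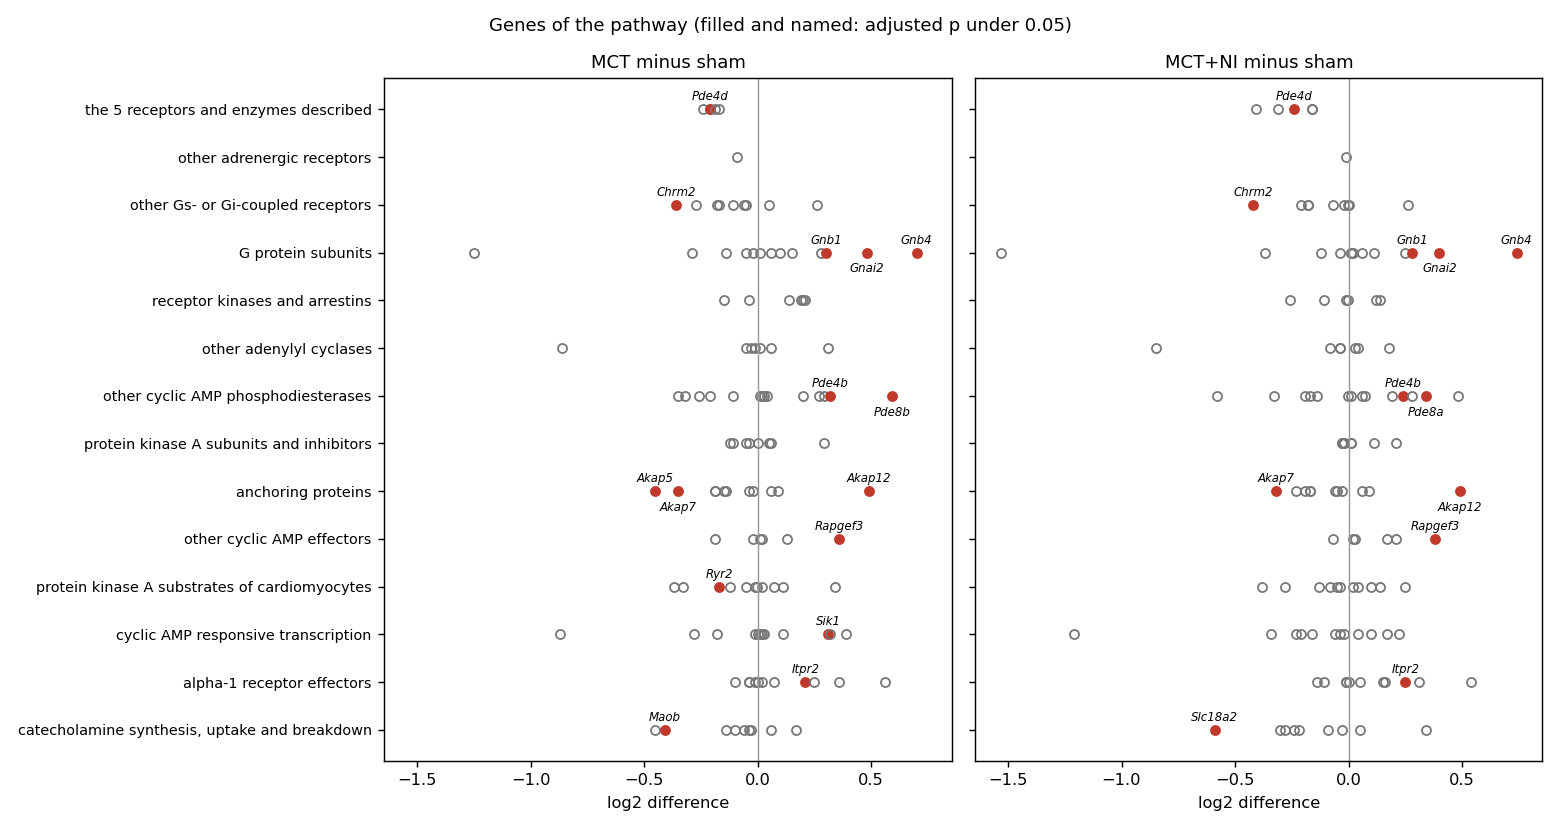
Log2 difference from sham (x axis) of every measured gene of each pathway list (y axis), for MCT mice (left) and MCT + NI mice (right). Each circle is 1 gene, and filled, named circles had a limma adjusted p under 0.05. Gnb4, Gnai2 and Gnb1 stood to the right in both panels, and Pde4d was to the left of 0 while Pde4b was to the right.

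Upstream of the cyclases, 3 of 13 G protein subunit genes rose in MCT mice and 3 of 13 in MCT + NI mice, and none fell. At an unadjusted p under 0.05, 5 were higher and 2 lower in MCT mice, and 4 higher and 2 lower in MCT + NI mice. The largest estimate was that of Gnao1, at -1.25 in MCT (limma adjusted p = 0.193) and -1.53 in MCT + NI mice (limma adjusted p = 0.113). Pearson's r of Gnao1 with the atrial level was 0.97 over the 9 mice. Gnai2, the alpha subunit of an inhibitory G protein that restrains adenylyl cyclase, had log2 values of 10.18, 10.22 and 10.19 in the sham, 10.74, 10.73 and 10.57 in the MCT and 10.58, 10.54 and 10.66 in the MCT + NI mice. The sham mice were tightly grouped and every treated mouse was higher. Gnai2 rose by 0.48 ± 0.049 (SE) in MCT mice (limma adjusted p = 0.000677) and by 0.40 ± 0.049 in MCT + NI mice (limma adjusted p = 0.00193). It passed under each of the alternative settings run, with the atrial covariate and with each mouse left out in turn among them. The beta subunit gene Gnb4 rose by 0.70 ± 0.11 in MCT mice (limma adjusted p = 0.00683) and by 0.74 ± 0.11 in MCT + NI mice (limma adjusted p = 0.00482), from 6.25 to 6.43 in sham to 6.91 to 7.25 in treated mice. Gnb1, another beta subunit gene, rose by 0.30 ± 0.049 (limma adjusted p = 0.00708) and by 0.28 ± 0.049 (limma adjusted p = 0.0101). Gnb4 and Gnb1 passed when any 1 mouse was left out. With the atrial covariate Gnb4 was at 0.61 and 0.65 and did not pass (limma adjusted p = 0.0784 and 0.0882), and Gnb1 was at 0.35 and 0.33 and passed (limma adjusted p = 0.03 and 0.0497). Without mice 644 and 615 Gnb1 was at 0.26 in MCT + NI mice (limma adjusted p = 0.0699). Markers of other cell types also differed between the groups, as given below, and their part in these rises was not tested.

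Among 9 other receptors coupled to stimulatory or inhibitory G proteins, Chrm2 was the only one to pass. Chrm2 encodes the M2 muscarinic receptor, through which the vagus nerve slows the heart and opposes beta receptor stimulation. Its log2 values were 10.47, 10.73 and 10.62 in the sham, 10.11, 10.28 and 10.35 in the MCT and 10.08, 10.32 and 10.17 in the MCT + NI mice, without overlap. It fell by 0.36 ± 0.088 (SE) in MCT mice (limma adjusted p = 0.0455) and by 0.42 ± 0.088 in MCT + NI mice (limma adjusted p = 0.0248). The atrial markers, which are markers of tissue rich in this receptor, were below the sham range in 5 of the same 6 treated mice (all but mouse 644). With their level as a covariate the differences were -0.31 and -0.36 (limma adjusted p = 0.255 and 0.244), and the part of atrial tissue in them was not tested. The call was also lost for MCT mice without mouse 624, 625, 640, 641, 615 or 619 (limma adjusted p up to 0.15) and for MCT + NI mice without mouse 624, 625, 615 or 619 (up to 0.0951). None of 6 measured receptor kinases and arrestins, which switch off stimulated receptors, passed in either comparison. Grk2, a further receptor kinase of this list, was not in the annotation used and was not measured.

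None of the 7 other adenylyl cyclases measured passed the adjusted threshold. The largest estimate was that of Adcy1, a calcium-stimulated cyclase, with log2 values of 5.25, 5.94 and 5.70 in the sham, 4.31, 4.68 and 5.31 in the MCT and 4.81, 4.80 and 4.74 in the MCT + NI mice. The MCT mouse with the highest Adcy1 value, 644, was also the MCT mouse with atrial markers in the sham range. The log2 differences from sham were -0.86 (limma adjusted p = 0.0806) and -0.85 (limma adjusted p = 0.0839), and they were -0.41 and -0.36 with the atrial covariate.

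Of the 14 other cyclic AMP phosphodiesterases, 2 rose and none fell in each comparison with sham, Pde4b and Pde8b in MCT mice and Pde4b and Pde8a in MCT + NI mice. Pde4b belongs to the same cyclic AMP-specific subfamily as Pde4d and is known from inflammatory cells as well as from cardiomyocytes. Its log2 values were 6.86, 7.02 and 6.91 in the sham, 7.22, 7.26 and 7.28 in the MCT and 7.13, 7.13 and 7.25 in the MCT + NI mice. All treated mice were above all sham mice, the opposite order to that of Pde4d. Pde4b rose by 0.32 ± 0.059 (SE) in MCT mice (limma adjusted p = 0.0125) and by 0.24 ± 0.059 in MCT + NI mice (limma adjusted p = 0.0488). The rise in MCT mice passed when any 1 mouse was left out, but not without mice 644 and 615 (0.31, limma adjusted p = 0.0671) or with the atrial covariate (0.33, limma adjusted p = 0.0852), where the estimate was about as large, whereas that in MCT + NI mice passed in only 1 of 9 such fits, that without sham mouse 624, with limma adjusted p up to 0.168. With the atrial covariate the latter was 0.25 (limma adjusted p = 0.257). The other members of the subfamily, Pde4a and Pde4c, had differences of -0.11 and 0.01 in MCT mice that did not pass (limma adjusted p = 0.271 and 0.966).

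Pde8a and Pde8b encode phosphodiesterases of high affinity for cyclic AMP. Pde8b had log2 values of 4.64, 5.10 and 4.72 in the sham, 5.36, 5.67 and 5.22 in the MCT and 5.40, 5.29 and 5.22 in the MCT + NI mice, without overlap between sham and treated mice. It rose by 0.59 ± 0.15 in MCT mice (limma adjusted p = 0.0478), while its difference in MCT + NI mice was 0.48 ± 0.15 (limma adjusted p = 0.0993). Pde8a rose by 0.34 ± 0.072 in MCT + NI mice (limma adjusted p = 0.0269) and had a difference of 0.29 ± 0.072 in MCT mice (limma adjusted p = 0.0501). The estimates of both genes were above 0 in both comparisons. Pde8b lost the threshold in 7 of 9 fits without 1 mouse, all but those without mouse 624 or 644 (limma adjusted p up to 0.135), and Pde8a in 5 of 9, those without mouse 620, 624, 625, 615 or 619 (up to 0.0913). With the atrial covariate neither passed, at 0.54 for Pde8b (limma adjusted p = 0.245) and 0.32 for Pde8a (limma adjusted p = 0.226). That each passed in only 1 of them does not show that NI altered it, since MCT + NI and MCT mice differed by 0.05 for Pde8a (unadjusted p = 0.525) and -0.11 for Pde8b (unadjusted p = 0.463).

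The upstream sequences of Pde4d and Pde4b are shown because these genes of one subfamily differed in direction. Each is the 250 bases before an annotated start (RefSeq, build GRCm38.p6), 5′ to 3′ on the plus strand, chr13:108653927-108654176 for Pde4d and chr4:102421305-102421554 for Pde4b. Capitals mark the core of the cyclic AMP response element, TGACG or CGTCA on the other strand.
Pde4d: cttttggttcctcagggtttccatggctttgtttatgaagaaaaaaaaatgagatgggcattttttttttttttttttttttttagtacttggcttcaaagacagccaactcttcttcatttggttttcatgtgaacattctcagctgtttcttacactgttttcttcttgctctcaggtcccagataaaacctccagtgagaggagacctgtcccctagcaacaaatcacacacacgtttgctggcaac
Pde4b: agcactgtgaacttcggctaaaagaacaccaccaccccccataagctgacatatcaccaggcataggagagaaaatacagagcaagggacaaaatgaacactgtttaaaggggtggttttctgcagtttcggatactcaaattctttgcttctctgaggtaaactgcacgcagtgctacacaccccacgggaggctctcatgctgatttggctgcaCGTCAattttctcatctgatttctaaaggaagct
The printed Pde4b window was picked from the 4 in the sequence table because it held the core, 34 bases before the start. The core was in 1 of these 4 windows, and was not in the 1 window of Pde4d. Windows ran from 250 bases before to 50 bases after a start. The sequence table held windows for 3 of the 5 genes, and not for Adcy6 or Pde3a. The core was also in none of the windows of Adra1b (2 windows) or Adcy5 (1 window), and 20.8% of all 32851 windows held it on either strand. A match of these letters is a description and not a binding site, and the array values do not say from which start a transcript came. The window of Adcy5 was 79.0% G and C and that of Pde4d 39.7%, around a median of 52.7% for all windows.

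Downstream of cyclic AMP, none of 8 measured protein kinase A subunits and inhibitors passed in either comparison. Prkaca, a catalytic subunit gene of this list, was only in a probe set of several genes and was left out. Of 11 anchoring proteins, which hold protein kinase A and phosphodiesterases near their targets, 1 rose and 2 fell in MCT mice. Akap12 (gravin), which binds beta receptors, rose by 0.49 ± 0.11 in both MCT and MCT + NI mice (limma adjusted p = 0.028 and 0.0278). Akap5, which assembles receptor, cyclase and kinase at the membrane, fell by 0.45 ± 0.10 in MCT mice (limma adjusted p = 0.0349), and its difference in MCT + NI mice was -0.23 (limma adjusted p = 0.268). Akap7, an anchor of the kinase at calcium channels and phospholamban, fell by 0.35 ± 0.078 in MCT mice (limma adjusted p = 0.033) and by 0.32 ± 0.078 in MCT + NI mice (limma adjusted p = 0.0461). The sham mice lay above all treated mice for both Akap5 and Akap7, and below them for Akap12. Even so, leaving out 1 mouse ended the call of Akap12 in 4 of 9 fits for MCT (mouse 620, 624, 640 or 641, limma adjusted p up to 0.0987) and 4 of 9 for MCT + NI mice (620, 624, 615 or 619, up to 0.114). It ended that of Akap5 in 6 of 9 (620, 624, 640, 644, 615 or 619, up to 0.112). For Akap7 it did so in 6 of 9 for MCT (624, 625, 640, 641, 644 or 615, up to 0.113) and in 8 of 9 for MCT + NI mice (all but mouse 617, up to 0.146). With the atrial covariate Akap12 was at 0.43 and 0.42 (limma adjusted p = 0.191 and 0.26) and did not pass. Nor did Akap7, at -0.31 and -0.27 (limma adjusted p = 0.21 and 0.34). Akap5 passed with the covariate, at -0.59 (limma adjusted p = 0.0426), but not without mice 644 and 615 (-0.35, limma adjusted p = 0.116).

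Of 6 other cyclic AMP effectors, Rapgef3 (Epac1), an exchange factor for the small GTPase Rap1 that cyclic AMP opens directly, rose by 0.36 ± 0.073 (limma adjusted p = 0.0198) and by 0.38 ± 0.073 (limma adjusted p = 0.0162). Of 11 protein kinase A substrates of cardiomyocytes, the ryanodine receptor gene Ryr2 fell by 0.17 ± 0.035 in MCT mice (limma adjusted p = 0.0234), from 11.65 to 11.72 in sham to 11.45 to 11.56. Its difference in MCT + NI mice was -0.13 (limma adjusted p = 0.0687). Of 12 genes of cyclic AMP responsive transcription, Sik1, a kinase induced by cyclic AMP, rose by 0.31 ± 0.055 in MCT mice (limma adjusted p = 0.0109), and its difference in MCT + NI mice was 0.17 (limma adjusted p = 0.121). On the alpha-1 receptor side, Itpr2, the main inositol trisphosphate receptor of cardiomyocytes, was the only 1 of 11 effectors to pass, and it rose by 0.21 ± 0.046 (limma adjusted p = 0.0309) and by 0.25 ± 0.046 (limma adjusted p = 0.0135). Sik1 passed in MCT mice when any 1 mouse was left out, but not without mice 644 and 615 (0.29, limma adjusted p = 0.0639) or with the atrial covariate (0.32, limma adjusted p = 0.0784). With the mean of its probe sets, of which the dimmer reads 3.46 to 4.19 in sham and 3.99 to 4.02 in MCT mice, Rapgef3 was at 0.22 and 0.23 and did not pass (limma adjusted p = 0.287 and 0.276). Its call was also lost without mouse 641 for MCT (limma adjusted p = 0.0692) and without 615 or 619 for MCT + NI mice (up to 0.0681), and that of Ryr2 without mouse 624, 625, 640 or 641 (up to 0.079). Itpr2 lost it for MCT mice without mouse 620, 624, 625, 640 or 641 (up to 0.116) and for MCT + NI mice without mouse 619 (0.0615). With the atrial covariate none of these passed, at 0.32 and 0.34 for Rapgef3 (limma adjusted p = 0.158 and 0.191), -0.13 for Ryr2 (0.192) and 0.14 and 0.18 for Itpr2 (0.251 and 0.202).

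Of 9 genes of catecholamine synthesis, uptake and breakdown, Maob, a monoamine oxidase of the outer mitochondrial membrane, fell by 0.41 ± 0.095 in MCT mice (limma adjusted p = 0.0394), and its difference in MCT + NI mice was -0.28 (limma adjusted p = 0.137). Slc18a2, the vesicular monoamine transporter, fell by 0.59 ± 0.12 in MCT + NI mice (limma adjusted p = 0.02), with a difference of -0.45 in MCT mice (limma adjusted p = 0.0633). Its values lay between 3.89 and 4.86, below the median gene level. None of 5 markers of sympathetic neurons and Schwann cells passed in either comparison, and their mean log2 level was 3.93 to 4.11 in sham, 3.92 to 3.96 in MCT and 3.76 to 3.86 in MCT + NI mice. The call of Maob was lost without mouse 620, 625, 640, 641 or 619 (limma adjusted p up to 0.139) and that of Slc18a2 without mouse 624, 625 or 619 (up to 0.0696). With the atrial covariate Maob was at -0.37 in MCT mice (limma adjusted p = 0.215) and Slc18a2 at -0.47 in MCT + NI mice (limma adjusted p = 0.24), and neither passed.

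**Figure D4:**
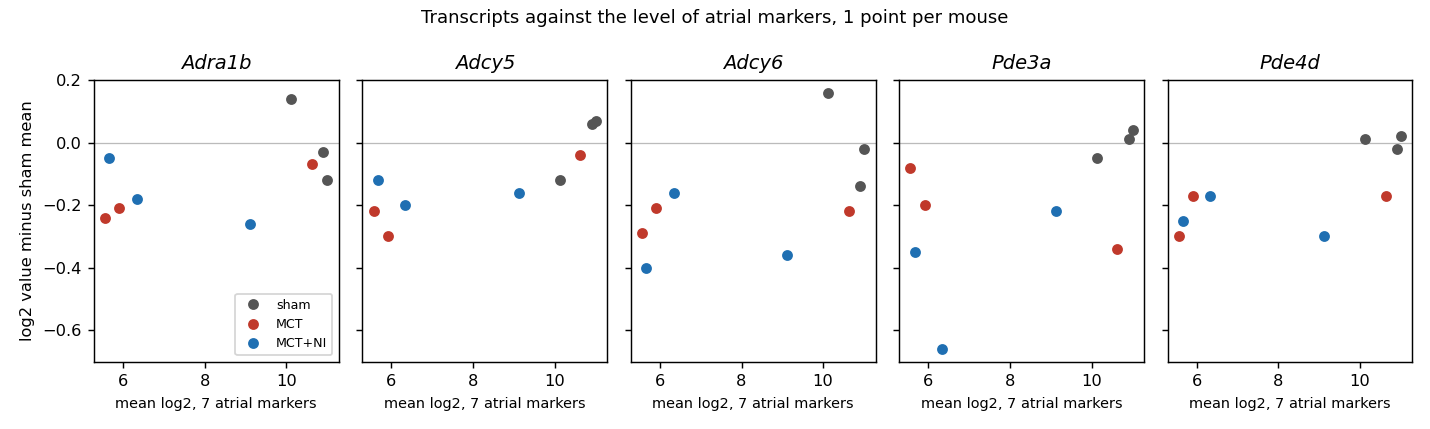
Log2 value of each gene minus its sham mean (y axis) against the mean log2 level of 7 atrial markers (x axis), 1 point per mouse, coloured by group. MCT mouse 644 and MCT + NI mouse 615, at 10.63 and 9.12 on the x axis, had Adcy6, Pde3a and Pde4d values below all sham mice, while mouse 644 was within the sham range for Adra1b and Adcy5.

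The atrial level was set against the 5 genes mouse by mouse. The 7 atrial markers were all lower in MCT than in sham mice at an unadjusted p under 0.05, and 0 of 7 passed the adjusted threshold in limma. MCT mouse 644 did not share the difference. Myl7, the atrial myosin light chain, read 10.55 to 11.77 in sham mice, 3.07, 3.66 and 11.40 in MCT mice 640, 641 and 644, and 9.79, 5.21 and 3.92 in MCT + NI mice 615, 617 and 619. In mouse 644, at an atrial level within the sham range, Adcy6 (8.93), Pde3a (8.93) and Pde4d (8.19) were below every sham mouse. Adra1b (6.26) and Adcy5 (7.57) were within the sham range in that mouse. Over the 9 mice, Pearson's r with the atrial level was 0.82 for Adcy5, 0.68 for Pde4d, 0.55 for Adcy6, 0.49 for Pde3a and 0.47 for Adra1b. These values are a description without a test, since the mice fell into separate clusters of atrial level and all sham mice lay in the high one. The part of atrial tissue in the differences from sham was not tested.

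The other cell type markers also differed between groups. In MCT mice 3 of 8 endothelial, 3 of 8 fibroblast, 4 of 8 smooth muscle and pericyte and 2 of 8 macrophage markers rose, and none of these 32 passed as lower, although 2 endothelial markers and 1 macrophage marker were lower at an unadjusted p under 0.05. In MCT + NI mice 4 of 8 endothelial, 3 of 8 fibroblast, 4 of 8 smooth muscle and pericyte and 0 of 8 macrophage markers rose, while 1 endothelial marker (Tek) and 1 macrophage marker (Csf1r) fell. The mean log2 level of the fibroblast markers was 8.39 to 8.63 in sham, 8.82 to 8.95 in MCT and 8.65 to 8.96 in MCT + NI mice. That of the macrophage markers was 6.94 to 7.19, 7.26 to 7.68 and 7.08 to 7.55, with MCT + NI mouse 617 within the sham range, and that of the endothelial markers 8.59 to 8.85, 8.82 to 8.86 and 8.69 to 8.92. None of the 8 ventricular cardiomyocyte markers passed in either comparison with sham, and none was lower in MCT mice at an unadjusted p under 0.05. The part of changed cell proportions in the lower receptor and enzyme values was not tested.

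The 5 genes did not follow each other closely from mouse to mouse. Over the 9 mice, Pearson's r between pairs ranged from 0.27 for Adra1b with Pde3a to 0.88 for Adcy6 with Pde4d. These values contain the group differences. After subtracting the group means, r was 0.59 for Adcy6 with Pde4d, -0.85 for Pde3a with Pde4d and -0.67 for Adcy6 with Pde3a. With 3 mice per group this is a description of these 9 arrays. Among 9410 genes at or above the median level, the genes most like Pde4d over the 9 mice were Prkag1 and Aldh2 (r = 0.98 each), which fell in MCT mice by 0.15 (limma adjusted p = 0.0351) and 0.33 (limma adjusted p = 0.00898). The genes most like Adcy6 were 0610038B21Rik (r = 0.98) and Klf15 (r = 0.97), those most like Adcy5 were D3Ertd751e and Rbpms (r = 0.97 each), those most like Pde3a were Prune1 and Mef2a (r = 0.95 each) and those most like Adra1b were Ppm1m and Ctdsp2 (r = 0.93 each). These r values were picked as the highest of 9410 and include the differences between the groups.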

How the data were processed

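RNA from the right ventricle of 9 mice was hybridized to 1 Affymetrix array each. The authors summarised the scans by RMA (version not given in the sources used here) and deposited log2 intensity values for 35556 probe sets, used here without further normalization. RMA shrinks small differences of dim probe sets. Levels of different probe sets were compared only within a gene, to find its brightest, and with the median gene level. The methods describe probe sets redefined by gene, whereas the deposited rows carry the manufacturer's numbers. Labels and methods differ in the RNA kit, the labelling kit and the weeks on diet before injection. Rows with 1 annotated gene (21218) were kept, rows with none (12457) or several (1881) left out, and the brightest of several probe sets represented a gene (18820 genes). The group comparisons used limma 3.58.1 (R 4.3.3), in which the 9 mice shared one estimate of the spread, moderated along the intensity trend. Named pathway genes were the 3 of each list with the smallest p against sham, and values are given for those past the adjusted threshold and for Adra2c and Adcy1, the others being counted only. Gnao1, Pde4a, Pde4c and the printed sequences were chosen after values were seen. The genes and lists were chosen with earlier results of these data known. The script was tested on simulated data. Each mouse is 1 animal. Array number limits the precision.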

Additional observations from a re-analysis of the deposited data

How the results depend on the processing

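In each comparison with sham, the estimates of the 5 genes were below 0 under 100 of 100 alternatives. Many of these keep the main estimate by construction, for example the permutation test, a changed variance model or a mouse left out of the third group. The count is therefore not a measure of how firm the direction is. Pde4d in MCT against sham missed the adjusted threshold with the mean of its probe sets (-0.22, limma adjusted p = 0.139), with every row tested (-0.21, 0.0826), without the intensity trend (-0.21, 0.0871), with the 2 groups alone (-0.21, 0.0733), after renewed quantile normalization (-0.22, 0.0557), with the atrial covariate (-0.20, 0.225), without mice 644 and 615 (-0.23, 0.0767) and in 8 of 9 fits without 1 mouse (-0.23 to -0.17). The exact permutation test (-0.21) could not pass. In MCT + NI against sham it missed it with the mean of probe sets (-0.23, 0.122), every row (-0.24, 0.0541), no trend (-0.24, 0.0564), the atrial covariate (-0.23, 0.23) and without mice 644 and 615 (-0.21, 0.12), and the fits without 1 mouse gave -0.27 to -0.21. The permutation test (-0.24) again could not pass. Among genes at or above the median level, where fewer genes are tested, Adcy6 (-0.31, 0.0447) and Pde3a (-0.41, 0.0375) passed in MCT + NI against sham, as did Pde3a without mice 644 and 615 (-0.50, 0.0376). Without 1 mouse, Adcy6 ranged from -0.38 to -0.23 and Pde3a from -0.50 to -0.29. The sign of MCT + NI against MCT turned for Adra1b without mouse 640 (-0.03), 641 (-0.01) or 619 (-0.05), for Adcy5 without 641 (-0.03) and for Pde4d without 615 (0.00273) or without 644 and 615 (0.03). Without 1 mouse this difference ranged from -0.05 to 0.06 for Adra1b, from -0.03 to 0.10 for Adcy5, from -0.07 to 0.00273 for Pde4d and from -0.29 to -0.08 for Pde3a. Adra2c in MCT + NI against sham turned to 0.01 after quantile normalization and to 0.02 without sham mouse 625, with -0.04 to 0.02 without 1 mouse. The causes were not tested.

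Of the 5 genes, the number lower in MCT against sham went from 1 to 0 under those 7 settings, and was 0 to 1 without 1 mouse. At the unadjusted threshold it went from 3 to 1 with the atrial covariate. In MCT + NI against sham it went from 1 to 0 with the mean of probe sets, every row, no trend and the atrial covariate, to 3 among genes at or above the median level, and was 0 to 2 without 1 mouse. In MCT + NI against MCT 1 gene, Pde3a, passed the unadjusted threshold without mice 644 and 615, and 0 to 1 without 1 mouse. Pathway genes lower in MCT mice went from 5 to 1 with every row, no trend, the compared groups alone or the atrial covariate, to 10 among genes at or above the median level, and to 0 to 5 without 1 mouse, with 0 without mouse 640. Those higher went from 9 to 2 with the atrial covariate, to 5 without mice 644 and 615 and to 5 to 10 without 1 mouse, with 5 without mouse 641. In MCT + NI mice the lower ones went from 3 to 0 with every row, the compared groups alone or the atrial covariate, to 5 among genes at or above the median level, and to 0 to 4 without 1 mouse, with 0 without mouse 619. The higher ones went from 8 to 5 with every row, 2 with the atrial covariate, 3 without mice 644 and 615 and 3 to 8 without 1 mouse, with 3 without mouse 619. The shares of all genes that passed are given for the main fit only. Whether these shifts in counts are particular to the genes listed was therefore not tested. The alternatives with the atrial covariate, without mice 644 and 615, and for the pathway genes were chosen with results of these data known. No paired analysis was possible because the mice carry different numbers in each group. The number of arrays, 3 per group, limits the precision.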
